A study of Rattus norvegicus with 33 samples.

Results

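The functional subsystems named for lipopolysaccharide and for bacterial capsules were examined in cecal contents of SHR and WKY rats. A subsystem is a curated set of genes that serve 1 process, and the deposited table gives the reads assigned to each. Members were the subsystems whose name contains lipopolysaccharide, lipid A, KDO2 or capsul, or LPS in capitals, and names with sialic or neuramin were left out. The rule found 17 of 1057 subsystems, with lipid A read as words of their own. Read as any run of letters it would have found 19, adding Glycerolipid and Glycerophospholipid Metabolism in Bacteria and Phospholipid and Fatty acid biosynthesis related cluster, which are not lipopolysaccharide subsystems by name.

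Shotgun metagenomics, the sequencing of all DNA in a sample, was applied to the cecal contents of 33 rats, with 1 library per rat. The SHR groups were 10 females and 7 males and the WKY groups 9 females and 7 males, all 14 to 15 weeks old. SHR, the spontaneously hypertensive rat, is an inbred line with inherited high blood pressure, and WKY, the Wistar Kyoto rat, is the line it was set against. No treatment was named for any group, and the labels gave no cage, litter or sequencing batch, so rats of a group were treated as independent, and p-values would be too small where rats shared a cage or a litter.

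Libraries held 95952 to 489862 reads assigned to functions. SHR libraries were shallower, with medians of 214911 reads in females and 315719 in males, against 396240 in WKY females and 382975 in WKY males. The 3 shallowest libraries were SHR female 9, SHR female 10 and SHR male 4. All values below are normalized reads, the deposited read counts divided by a size factor of each library. Over all libraries the 17 members took 0.911% of the reads assigned to functions. Their summed share averaged 0.998 ± 0.098% in SHR females (SD, n = 10) and 0.916 ± 0.129% in SHR males (n = 7), against 0.906 ± 0.136% in WKY females (n = 9) and 0.778 ± 0.139% in WKY males (n = 7).

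Lipopolysaccharide covers the outer membrane of Gram-negative bacteria. Its anchor, lipid A, sits in the membrane and carries a sugar core that begins with Kdo, and many species add a repeated sugar chain called the O-antigen. The immune system of the host detects lipid A, and bacteria alter lipid A and the sugars to change their charge or to avoid antibodies and antimicrobial peptides. A capsule is a further coat of polysaccharide, made by Gram-negative and Gram-positive species alike, that hides the cell from complement, phagocytes and phages. Gut Bacteroides carry several capsule loci and switch between them.

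Reads per subsystem depend on how many genes it holds and how long they are, so the levels below are compared between rats and not between subsystems. A subsystem named after a species does not show that the species was present, since related bacteria carry similar genes. In DNA from a whole community, more cells that carry a gene and more copies per cell cannot be told apart.

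Of the 17 members, 12 averaged at least 10 normalized reads and had a read in each of the 33 rats. Among the lipid A subsystems, KDO2-Lipid A biosynthesis averaged 847 normalized reads and the Lipid A-Ara4N pathway (Polymyxin resistance) averaged 414. Lipid A modifications, a set of enzymes that trim or decorate the anchor, averaged 3.73. Among the subsystems for assembly, Lipopolysaccharide assembly averaged 60.3 and the Lipopolysaccharide assembly cluster 33.2. The Lipopolysaccharide-related cluster in Alphaproteobacteria, whose name gives no step, averaged 324. Inner membrane protein YhjD and conserved cluster involved in LPS biosynthesis, called the YhjD cluster below, averaged 1.66 normalized reads.

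Among the subsystems for the outer sugars, Phosphorylcholine incorporation in LPS averaged 86.4 normalized reads. O-antigen capsule important for environmental persistence averaged 2.19, and the Brucella Wbk Region and LPS genes averaged 1.15. Among the capsule subsystems, the Streptococcal Hyaluronic Acid Capsule averaged 372 normalized reads and Capsular heptose biosynthesis averaged 333. Capsular Polysaccharides Biosynthesis and Assembly averaged 142 and the Serotype determining Capsular polysaccharide biosynthesis in Staphylococcus averaged 94.1. O-Methyl Phosphoramidate Capsule Modification in Campylobacter averaged 33.2 and the Bacteroides capsular polysaccharide transcription antitermination proteins averaged 29.4. The Capsular Polysaccharide (CPS) of Campylobacter had 4 reads in all, in 2 SHR females.

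Members were tested in a single fit over all 1057 subsystems, with limma on log2(normalized reads + 1) and Benjamini-Hochberg adjustment over the whole table. A call means an adjusted p under 0.05, and each test was 2-sided. The comparison of SHR with WKY asks whether the cecal gene content differs between the hypertensive strain and its comparison strain. In females 2 of the 17 members were higher in SHR and 0 lower, where 8.42% of all subsystems were called, 3.69% higher and 4.73% lower. In males 1 member was higher and 0 lower, where 2.46% of all subsystems were called, 0.662% higher and 1.80% lower. For the mean of both sexes 4 members were higher and 1 lower, where 17.2% of all subsystems were called, 6.72% higher and 10.5% lower. The shares of members called are read against these backgrounds and not as a property of the list.

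The median log2 fold change over the 17 members was 0.10 in females, 0.25 in males and 0.14 for the mean of both sexes. Over the 1024 subsystems with at least 1 read it was -0.05, -0.02 and -0.04. Which way most of the calls went changed with a centred log-ratio, which raised that table median by 0.048, 0.043 and 0.045 in the same order. Equal library totals moved it by 0.0030, -0.0022 and -2.8e-05. Among all subsystems called, 39 were higher and 50 lower in SHR females as deposited, and 49 were higher and 40 lower after a centred log-ratio. In males the calls were 7 higher and 19 lower as deposited, and 22 higher and 19 lower after a centred log-ratio. For the mean of both sexes they were 71 higher and 111 lower as deposited, and 109 higher and 88 lower after a centred log-ratio.

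**Figure D1:**
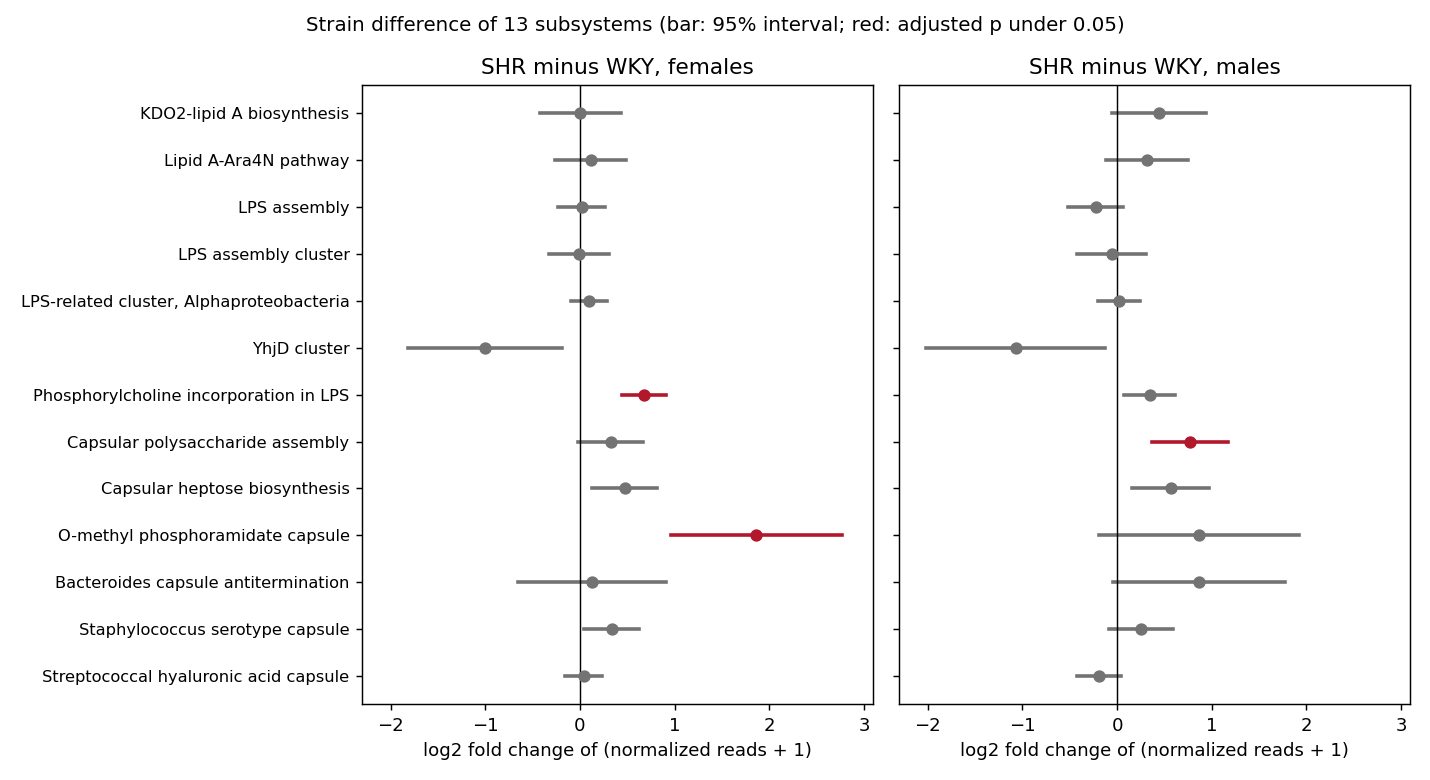
Difference of SHR minus WKY in females (left) and males (right) for 13 subsystems, as the log2 fold change of normalized reads + 1 from limma with its 95% interval. Red marks an adjusted p under 0.05; Phosphorylcholine incorporation in LPS (0.67) and the O-methyl phosphoramidate capsule (1.86) are red in females, and Capsular Polysaccharides Biosynthesis and Assembly (0.77) is red in males.

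KDO2-Lipid A biosynthesis makes the membrane anchor and adds its first Kdo sugars, steps shared by nearly all Gram-negative bacteria. It ran from 638 to 1149 normalized reads in SHR females with a median of 942, and from 526.1 to 1265 in SHR males with a median of 728. In WKY females it ran from 493.4 to 1457 with a median of 824, and in WKY males from 321 to 1047 with a median of 556. The groups overlapped throughout, and no SHR female lay above the highest WKY female. The difference of SHR minus WKY was 0.00 ± 0.21 on the log2 scale (SE) in females, with a 95% interval of -0.43 to 0.43 and an adjusted p of 1 by limma. In males it was 0.44 ± 0.24, with an interval of -0.06 to 0.94 and an adjusted p of 0.325 by limma.

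The Lipid A-Ara4N pathway attaches an aminoarabinose sugar to the phosphates of lipid A, which lowers the binding of polymyxin and of cationic host peptides. It ran from 319 to 593 normalized reads in SHR females with a median of 456, and from 267 to 566 in SHR males with a median of 397. In WKY females the range was 255 to 604 with a median of 419, and in WKY males 199 to 504 with a median of 288. SHR and WKY overlapped in both sexes here as well. The log2 difference of SHR minus WKY was 0.11 ± 0.18 in females and 0.32 ± 0.21 in males, with adjusted p of 0.758 and 0.419 by limma.

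Lipid A modifications had 0 to 9.17 normalized reads per rat and a read in 32 of the 33 rats. It had 138 reads in all libraries and was not called in any comparison.

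The subsystems named for lipopolysaccharide assembly carry finished lipopolysaccharide across the envelope to the cell surface. Lipopolysaccharide assembly differed between SHR and WKY by 0.02 ± 0.12 on the log2 scale in females and by -0.23 ± 0.14 in males, with adjusted p of 0.986 and 0.395 by limma. The Lipopolysaccharide assembly cluster differed by -0.01 ± 0.15 in females and -0.06 ± 0.18 in males, and 4 alternative analyses, beside 10 of the fits that left out 1 rat, gave females a small positive value instead. The Lipopolysaccharide-related cluster in Alphaproteobacteria, whose name gives no role in assembly, differed by 0.10 ± 0.09 in females and 0.02 ± 0.11 in males. None of the 3 was called in any comparison, and their 95% intervals in females and in males stayed within -0.52 and 0.31. The Alphaproteobacteria cluster was the steadiest member, with a highest rat 1.67 times the lowest.

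YhjD is an inner membrane protein, altered forms of which let Escherichia coli live without Kdo. Its cluster had 62 reads in all libraries together. It had a read in 4 of 10 SHR females and 3 of 7 SHR males, against 8 of 9 WKY females and 6 of 7 WKY males. These counts of rats are not adjusted for depth, and the SHR libraries were shallower. Values ran from 0 to 3.87 normalized reads in SHR females with a median of 0, and from 0 to 0.999 in SHR males with a median of 0. In WKY females they ran from 0 to 7.98 with a median of 2.55, and in WKY males from 0 to 6.37 with a median of 0.84.

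The YhjD cluster was the 1 member called lower in SHR for the mean of both sexes, by -1.04 ± 0.31 on the log2 scale with an adjusted p of 0.0168 by limma. Within the sexes it was not called, at -1.002 ± 0.40 in females (adjusted p = 0.107 by limma) and -1.07 ± 0.46 in males (adjusted p = 0.187). With every library thinned to 95952 reads the difference of the mean of both sexes was -0.70 and its adjusted p 0.0503 by limma. A fold change on the log2(value + 1) scale understates the change of so low a subsystem.

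Phosphorylcholine incorporation in LPS covers the genes that place phosphorylcholine on the sugars of lipopolysaccharide. The decoration is known from Haemophilus influenzae, where it mimics a host lipid and is bound by C-reactive protein. Values ran from 77.4 to 139 normalized reads in SHR females with a median of 102, and from 77.9 to 116 in SHR males with a median of 103. In WKY females they ran from 49.6 to 78.8 with a median of 61.2, and in WKY males from 50.1 to 93.2 with a median of 82.2. Of the 10 SHR females 9 lay above the highest WKY female, and of the 7 SHR males 5 lay above the highest WKY male.

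In females Phosphorylcholine incorporation in LPS was higher in SHR by 0.67 ± 0.11 on the log2 scale, with a 95% interval of 0.44 to 0.90 and an adjusted p of 0.00047 by limma. In males the difference was 0.35 ± 0.13 and not called (adjusted p = 0.131 by limma). As the mean of both sexes it was 0.51 ± 0.09 with an adjusted p of 0.00018 by limma. The strain differences of the sexes were 0.33 ± 0.17 apart, with a 95% interval of -0.03 to 0.68 and an adjusted p of 0.738 by limma. The authors' deposited tables list the subsystem too, as WKY over SHR by the sign against the levels here, at -0.67 in their model of females (adjusted p = 8.07e-07) and -0.35 in their general model (adjusted p = 6.14e-07).

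The O-antigen members were rare. O-antigen capsule important for environmental persistence, described in Salmonella, had 84 reads in all and a read in 17 of 33 rats. The Brucella Wbk Region and LPS genes, which make the O-antigen of Brucella, had 41 reads and a read in 22 rats. Neither was called in any comparison, and at these counts a difference was not detectable unless large.

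**Figure D2:**
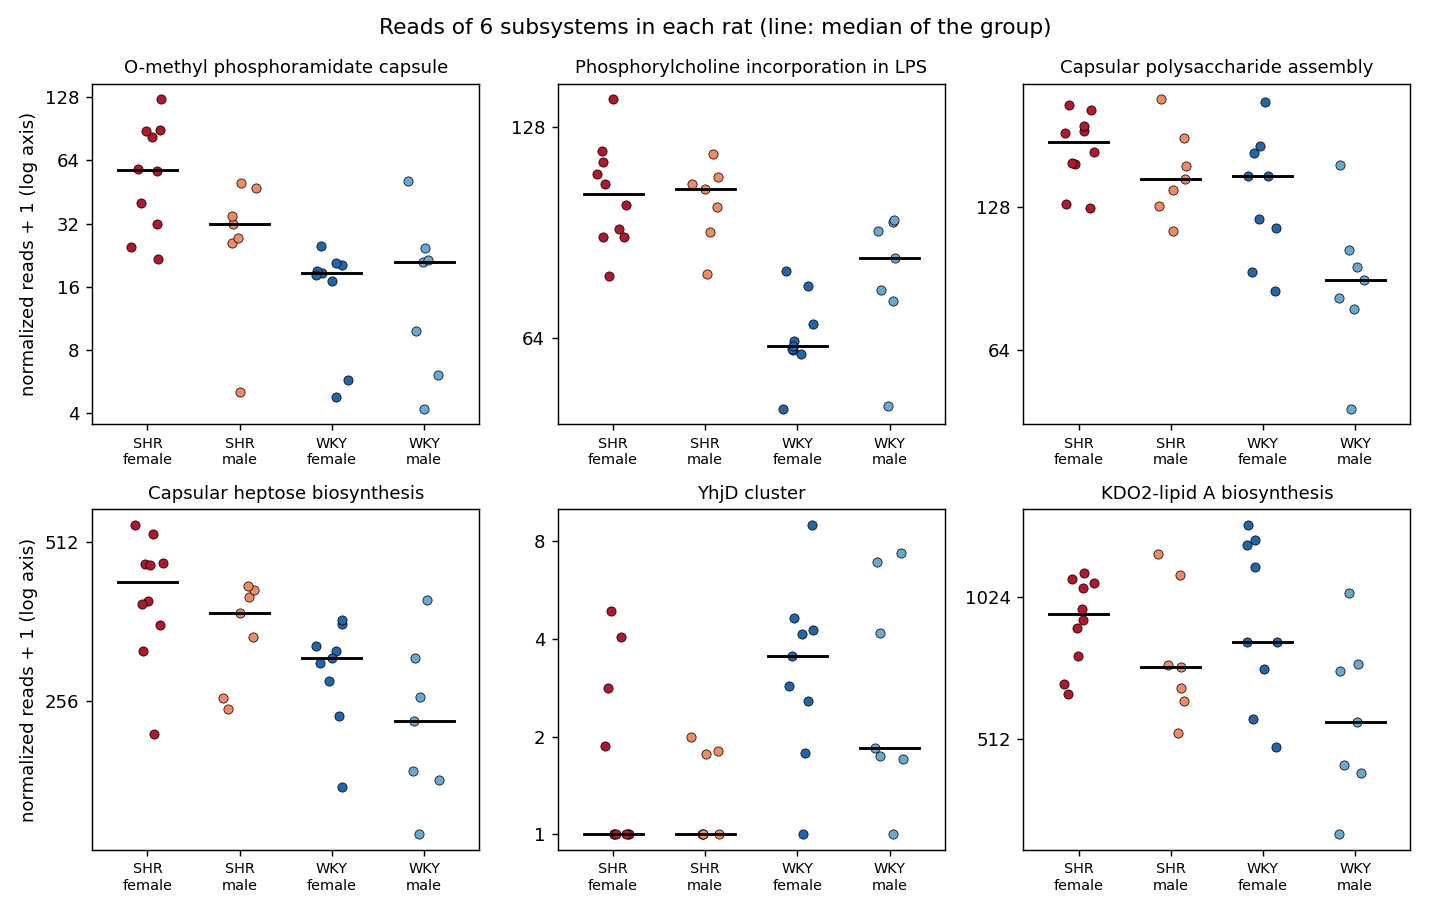
Normalized reads + 1 on a log axis for 6 subsystems, 1 point per rat and a line at the median, in from left to right females then males of SHR and of WKY. The SHR females sit highest for the O-methyl phosphoramidate capsule (median 56.6 against 17.5 normalized reads in WKY females), 9 of 10 SHR females lie above all WKY females for Phosphorylcholine incorporation in LPS, and the median of the YhjD cluster is 0 in both groups of SHR.

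O-Methyl Phosphoramidate Capsule Modification in Campylobacter covers genes that attach O-methyl phosphoramidate to capsule sugars, a change known from Campylobacter jejuni that affects its recognition by phages and by serum. Values ran from 20.7 to 125 normalized reads in SHR females with a median of 56.6, and from 3.99 to 49.1 in SHR males with a median of 30.8. In WKY females they ran from 3.73 to 24.1 with a median of 17.5, and in WKY males from 3.18 to 50.0 with a median of 19.99. Of the 10 SHR females 8 lay above the highest WKY female and each lay above the WKY female median. The males overlapped widely, and no SHR male lay above the highest WKY male.

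In females the O-methyl phosphoramidate subsystem was higher in SHR by 1.86 ± 0.45 on the log2 scale, with a 95% interval of 0.96 to 2.77 and an adjusted p of 0.0086 by limma. The male difference was 0.86 ± 0.52, with an interval of -0.19 to 1.92 and an adjusted p of 0.375 by limma. As the mean of both sexes it was 1.36 ± 0.34 with an adjusted p of 0.0062 by limma. The strain differences of the sexes were 1.0 ± 0.68 apart, which was not called (adjusted p = 0.795 by limma). The authors' deposited tables give -1.99 in females (adjusted p = 2.63e-06) and -1.71 in their general model (adjusted p = 8.83e-05), again as WKY over SHR.

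This subsystem varied most between rats. Within groups its SD was 1.01 on the log2 scale, and the highest of the 33 rats had 39.1 times the reads of the lowest. The lowest SHR male, number 5, had 4 reads. Without that rat the male difference was 1.26, and without WKY male 5 it was 0.56, neither of them called. The genus Campylobacter averaged 0.206 ± 0.057% of assigned reads in SHR females and 0.225 ± 0.050% in SHR males, against 0.174 ± 0.060% in WKY females and 0.163 ± 0.027% in WKY males. The genus averaged more in SHR males than in SHR females, while the subsystem had the lower median in the males, and the part of the genus in the result was not tested. The other capsule subsystem named for Campylobacter had 0 reads in both groups of WKY and in SHR males.

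Capsular Polysaccharides Biosynthesis and Assembly covers the machinery that builds and exports capsule chains. Values ran from 126 to 208 normalized reads in SHR females with a median of 174, and from 113 to 215 in SHR males with a median of 145. In WKY females they ran from 84.0 to 211 with a median of 147, and in WKY males from 47.1 to 156 with a median of 88.6. All 7 SHR males lay above the WKY male median and 2 of them above the highest WKY male.

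In males Capsular Polysaccharides Biosynthesis and Assembly was higher in SHR by 0.77 ± 0.20 on the log2 scale, with a 95% interval of 0.37 to 1.17 and an adjusted p of 0.0286 by limma. In females the difference was 0.32 ± 0.17 and not called (adjusted p = 0.232 by limma). As the mean of both sexes it was 0.55 ± 0.13 with an adjusted p of 0.0041 by limma. The strain differences of the sexes were -0.45 ± 0.26 apart, which was not called (adjusted p = 0.758 by limma). The male call was lost when SHR male 1, 2 or 5 or WKY male 5 or 6 was left out, with differences of 0.62 to 0.76. It was also lost in a fit on the males alone (adjusted p = 0.169 by limma) and with thinned reads (0.86, adjusted p = 0.0826). The authors' general model lists the subsystem at -0.88 (adjusted p = 0.000496), as WKY over SHR. Their table of males lists 16 subsystems and 0 members, so the male call has no counterpart there.

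Capsular heptose biosynthesis makes the activated heptose sugars of several capsules. Values ran from 221 to 550 normalized reads in SHR females with a median of 429, and from 246 to 421 in SHR males with a median of 375. In WKY females they ran from 175 to 363 with a median of 307, and in WKY males from 143 to 396 with a median of 234. Of the 10 SHR females 7 lay above the highest WKY female, and of the 7 SHR males 3 lay above the highest WKY male. The difference was called for the mean of both sexes only, at 0.52 ± 0.13 on the log2 scale with an adjusted p of 0.0064 by limma.

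Within the sexes Capsular heptose biosynthesis differed by 0.47 ± 0.17 in females (adjusted p = 0.0791 by limma) and by 0.57 ± 0.20 in males (adjusted p = 0.107). In females the call depended on the method. It was called by edgeR on the recovered reads (0.52, adjusted p = 0.0348), which called 9.96% of all subsystems with reads. DESeq2 on the recovered reads called it too (0.50, adjusted p = 0.0256), and called 14.8% of those with an adjusted p. Limma without the shallowest library, SHR female 9, called it at 0.57. That fit called 129 of all subsystems in females, against 89 with every rat. In males it was called by limma without the 3 shallowest libraries (0.65) and without WKY male 7 (0.69). The fit without WKY male 7 called 81 of all subsystems in males, against 26 with every rat. The authors' deposited table of females lists it at -0.50 (adjusted p = 0.00734) as WKY over SHR. Their general model lists it at -0.77 (adjusted p = 0.00136), larger in size than the difference in either sex here.

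The Bacteroides capsular polysaccharide transcription antitermination proteins let transcription run through a chosen capsule locus. The subsystem ran from 3.93 normalized reads in a WKY male to 74.9 in an SHR male, and the highest rat had 19.1 times the reads of the lowest. SHR and WKY differed by 0.13 ± 0.38 on the log2 scale in females and 0.87 ± 0.45 in males, neither of them called (adjusted p of 0.899 and 0.285 by limma).

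The other capsule members are named after Gram-positive bacteria. The Staphylococcus serotype capsule subsystem differed by 0.34 ± 0.14 in females and 0.25 ± 0.16 in males, and by 0.29 ± 0.11 for the mean of both sexes, just outside the threshold (adjusted p = 0.0587 by limma). All 7 SHR males and 9 of 10 SHR females lay above the median of the WKY rats of their sex. The mean of both sexes was called by DESeq2, after a centred log-ratio and with a filter on low subsystems, settings that called 24.7%, 18.6% and 27.8% of the subsystems they tested.

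The Streptococcal Hyaluronic Acid Capsule holds enzymes for hyaluronan and its sugar precursors, and the precursor enzymes are widespread among bacteria. Values ran from 304 to 432 normalized reads in SHR females with a median of 342, and from 338 to 395 in SHR males with a median of 382. In WKY females they ran from 300.1 to 436 with a median of 316, and in WKY males from 320 to 626 with a median of 438. The strain difference was 0.04 ± 0.10 in females and -0.19 ± 0.11 in males on the log2 scale, with no call (adjusted p of 0.872 and 0.369 by limma).

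Females and males were then compared within each strain. In SHR no member was called by limma, edgeR or DESeq2, against 0% of all subsystems by limma. An unadjusted p under 0.05 by limma was found for 1 member, against 48 of all subsystems. That member was O-Methyl Phosphoramidate Capsule Modification in Campylobacter, with a difference of 1.01 ± 0.48 on the log2 scale (female minus male) that did not pass the adjustment (adjusted p = 0.837 by limma). Without SHR male 5 its difference was 0.61.

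In WKY 0 members were called by limma, against 0.662% of all subsystems. An unadjusted p under 0.05 was found for 5 members, against 193 of all subsystems. By edgeR 0 members were called, against 3.52% of all subsystems with reads. By DESeq2 3 members were called, against 9.63% of the 706 subsystems to which it gave an adjusted p. The members called by DESeq2 were KDO2-Lipid A biosynthesis (0.68), Capsular Polysaccharides Biosynthesis and Assembly (0.60) and the Streptococcal Hyaluronic Acid Capsule (-0.32). By limma KDO2-Lipid A biosynthesis differed by 0.67 ± 0.23 (female minus male, adjusted p = 0.0952 by limma) and Capsular Polysaccharides Biosynthesis and Assembly by 0.61 ± 0.19 (adjusted p = 0.0751). The Bacteroides antitermination proteins differed by 1.003 ± 0.42 (adjusted p = 0.18 by limma). The Streptococcal Hyaluronic Acid Capsule differed by -0.31 ± 0.11 (adjusted p = 0.0952 by limma) and Phosphorylcholine incorporation in LPS by -0.29 ± 0.13 (adjusted p = 0.193). No WKY female lay above the WKY male median for those last subsystems.

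The strain by sex term, which asks whether the strain difference is the same in both sexes, was called for 0 members and for 0% of all subsystems by limma, with 0 members and 82 subsystems at an unadjusted p under 0.05. edgeR and DESeq2 called 0 members as well. Female and male strain differences are therefore given side by side and not as differing.

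Members were set against the makeup of the community. A list of 22 phyla that are Gram-negative as a rule was summed, of which 21 are in the phylum table. The sum took 47.3 ± 9.7% of assigned reads in SHR females and 41.5 ± 10.97% in SHR males, against 46.9 ± 13.3% in WKY females and 33.2 ± 12.6% in WKY males (SD). Bacteroidetes made up most of it, at 34.03% and 26.9% in SHR females and males and 30.6% and 18.1% in WKY females and males.

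For each of the 12 members with at least 10 reads on average, log2(normalized reads + 1) was correlated with the log2 odds of that share over 33 rats, by a permutation test of 100000 resamples with adjustment over the 12. The correlation passed for 9 members. The test was not run on the other subsystems, so the 9 have no background share and are not read as a trait of the list. Both measures come from the same library, and shares of a whole are not independent of each other.

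The relation was closest for KDO2-Lipid A biosynthesis, with a Pearson's r of 0.950 and a Spearman's rho of 0.950 (p of 1e-05 each, the smallest the permutations can give, adjusted 3e-05). It was 0.898 for the Lipid A-Ara4N pathway (rho 0.888), 0.863 for the Bacteroides antitermination proteins (rho 0.883), 0.812 for Capsular Polysaccharides Biosynthesis and Assembly (rho 0.842) and 0.746 for Capsular heptose biosynthesis (rho 0.658). The permutation p of r was 1e-05 for the first 3 of these and 2e-05 for the heptose subsystem, adjusted 3e-05 and 4.8e-05. Without WKY male 4 and WKY male 5, the rats farthest from the median at 19.6% and 20.1%, r was 0.945, 0.876, 0.868, 0.791 and 0.659. Within the 17 SHR rats r was 0.958, 0.846, 0.916, 0.853 and 0.677, and within the 16 WKY rats 0.945, 0.917, 0.831, 0.871 and 0.870.

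Other members had fewer reads in rats with a larger Gram-negative share, among them subsystems for lipopolysaccharide assembly, a Gram-negative process. The r was -0.419 for the Lipopolysaccharide assembly cluster (rho -0.441, adjusted p = 0.0201 by permutation), -0.423 for the Alphaproteobacteria cluster (rho -0.401, adjusted p = 0.0201), -0.491 for Lipopolysaccharide assembly (rho -0.521, adjusted p = 0.00588) and -0.518 for the Streptococcal Hyaluronic Acid Capsule (rho -0.414, adjusted p = 0.00344). None of these 4 passed the adjustment within the 17 SHR rats, and the hyaluronic acid capsule alone did within the 16 WKY rats, at -0.637. Without the 2 farthest rats they stayed between -0.419 and -0.540.

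The members called in females did not follow the share over all rats. O-Methyl Phosphoramidate Capsule Modification in Campylobacter had an r of 0.113 (rho 0.043, permutation p = 0.532) and Phosphorylcholine incorporation in LPS an r of -0.032 (rho -0.098, permutation p = 0.859). Within SHR the phosphorylcholine subsystem reached an r of -0.546 (adjusted permutation p = 0.0452, n = 17). Its rho there was -0.485, with a permutation p of 0.0519 before adjustment. Within WKY its r was -0.081 (rho -0.085, n = 16). The Staphylococcus serotype capsule was at -0.005 (rho -0.023, permutation p = 0.979).

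The Gram-negative share was also set as a covariate in the limma fit, a setting chosen after seeing the data. In females Phosphorylcholine incorporation in LPS and the O-methyl phosphoramidate subsystem were called in that fit, with adjusted p of 0.00024 and 0.0049 by limma. The share comes from the same libraries, and the part of the community in these differences was not tested. Capsular Polysaccharides Biosynthesis and Assembly (0.31, adjusted p = 0.0346 by limma) and Capsular heptose biosynthesis (0.46, adjusted p = 0.0055 by limma) were then called in females as well, when 15.5% of all subsystems were called in females with the covariate, against 8.42% without it.

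**Figure D3:**
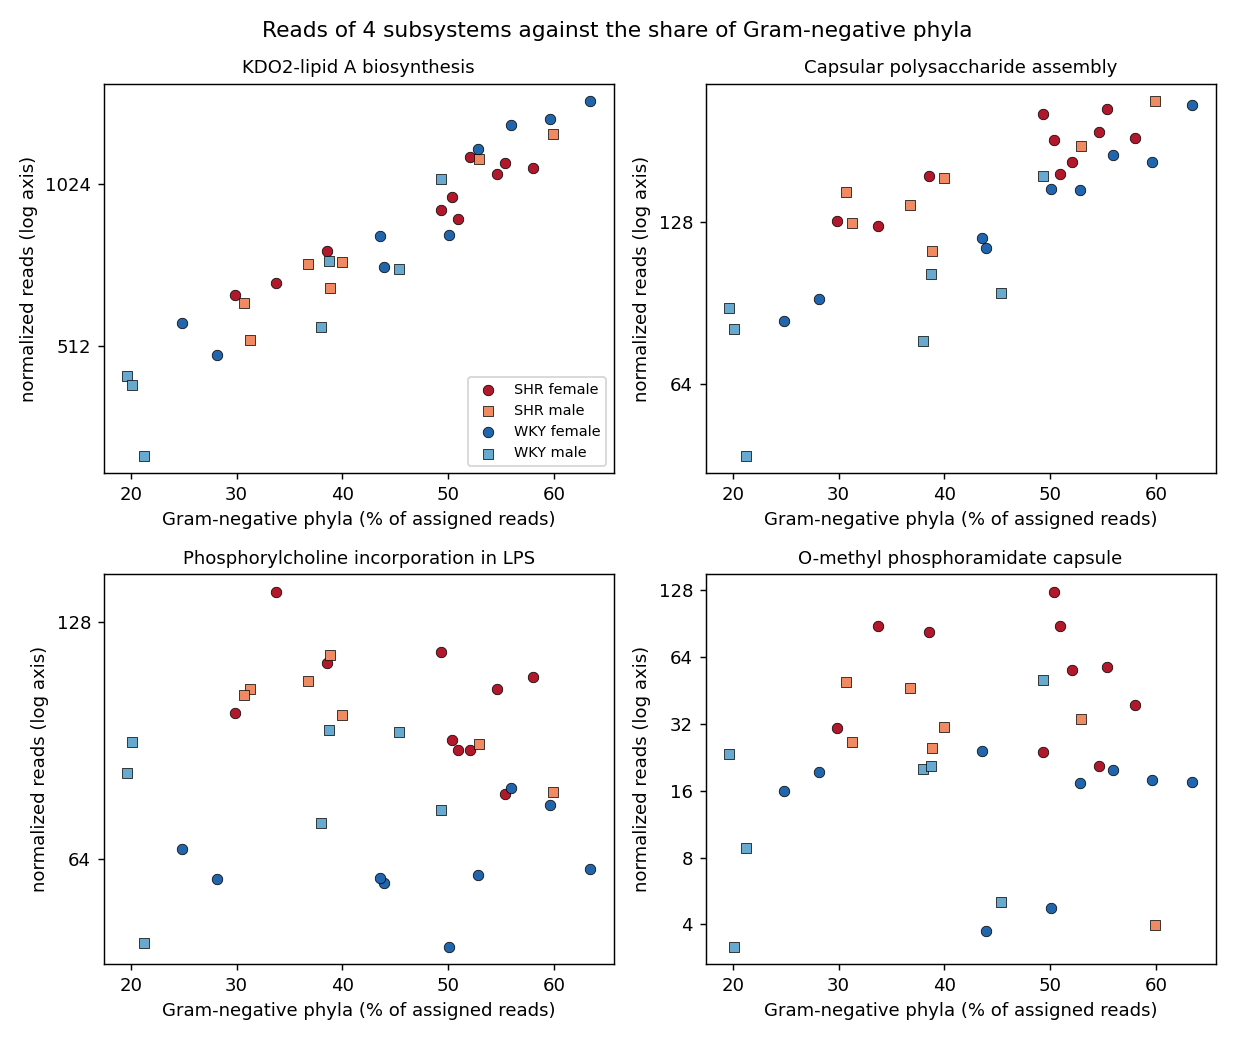
Normalized reads on a log axis against the share of Gram-negative phyla in percent of assigned reads, 1 point per rat, for SHR females and males (reds) and WKY females and males (blues). KDO2-lipid A biosynthesis rises with the share in both strains (r = 0.950), capsular polysaccharide assembly does so with more scatter (r = 0.812), and the phosphorylcholine and O-methyl phosphoramidate subsystems do not (r = -0.032 and 0.113).

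Within groups, after each group mean was taken off, the 12 members formed 66 pairs. By permutation test with adjustment over the pairs, 11 were positively and 8 negatively correlated. Pairs of other subsystems were not tested, so these counts have no background and are not read as a trait of the list. Outside the members, the Propionyl-CoA to Succinyl-CoA Module followed KDO2-Lipid A biosynthesis at r = 0.975, above the highest member pair. The members that rose with the Gram-negative share rose and fell together, led by KDO2-Lipid A biosynthesis with the Lipid A-Ara4N pathway (r = 0.922, rho 0.912, adjusted permutation p = 9.43e-05). Lipopolysaccharide assembly was negatively correlated with 4 of these 5, from r = -0.503 with KDO2-Lipid A biosynthesis (rho -0.510, adjusted permutation p = 0.022) to r = -0.581 with the Bacteroides antitermination proteins (rho -0.547, adjusted permutation p = 0.00438). Its r with the last of the 5, Capsular heptose biosynthesis, was -0.141 (rho -0.031, adjusted permutation p = 0.677). The Lipopolysaccharide assembly cluster passed with 3 of the 5, at r of -0.425 to -0.460 (adjusted permutation p = 0.0374 for r, and above the threshold for rho), and the Alphaproteobacteria cluster with none of them. The O-methyl phosphoramidate subsystem was positively correlated with 1 member, the Alphaproteobacteria cluster (r = 0.457, rho 0.432, adjusted permutation p of 0.0374 for r and 0.0606 for rho). Phosphorylcholine incorporation in LPS passed with none.

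**Figure D4:**
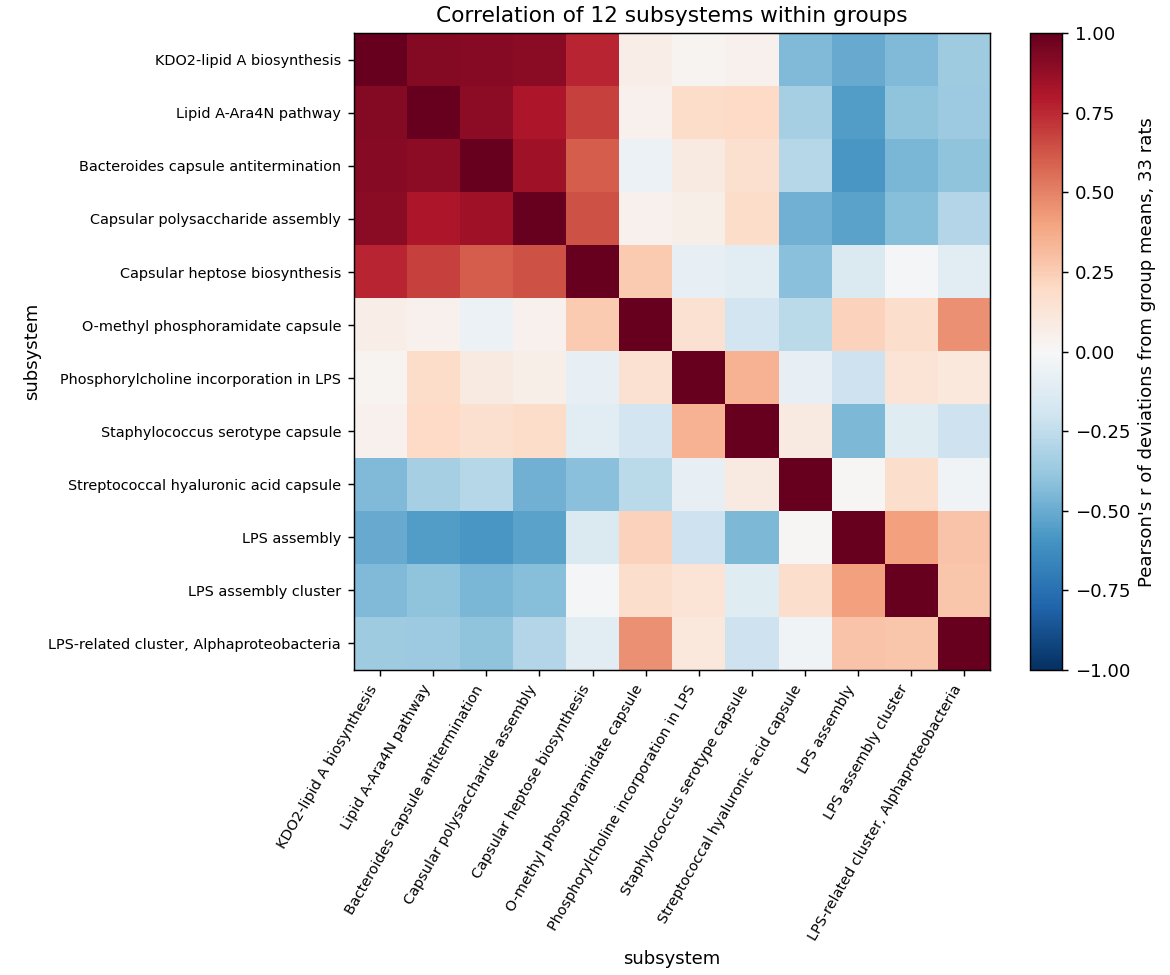
Pearson's r among 12 subsystems over 33 rats after group means were taken off, from -1 (blue) to 1 (red). The 5 subsystems at the top left form a block of positive correlations, Lipopolysaccharide assembly at the bottom right is negative with 4 of them beyond the threshold and at -0.141 with Capsular heptose biosynthesis, and the phosphorylcholine and O-methyl phosphoramidate subsystems stand largely apart.

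Over all 613 other subsystems with enough reads, the pattern within groups most like that of the O-methyl phosphoramidate subsystem was Bacterial Chemotaxis (r = 0.68 over 33 rats), followed by Flagellar motility (0.67) and Lysine fermentation MCB 432 (0.63). For Phosphorylcholine incorporation in LPS it was Phosphoenolpyruvate phosphomutase (0.63), then ABC transporter tungstate (0.54) and tRNA splicing (0.53). For KDO2-Lipid A biosynthesis it was the Propionyl-CoA to Succinyl-CoA Module (0.98). The Capsular Polysaccharides Biosynthesis and Assembly subsystem was most like the same module (0.90) and Colanic acid biosynthesis (0.90), and Capsular heptose biosynthesis was most like CMP-N-acetylneuraminate Biosynthesis (0.85). The Lipid A-Ara4N pathway was most like the Colicin V and Bacteriocin Production Cluster (0.95), the Streptococcal Hyaluronic Acid Capsule like CRISPRs (0.66) and the YhjD cluster like Glutathione: Redox cycle (0.60). These likenesses are descriptions, picked as the highest of many.

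Other subsystems for surface sugars were counted beside the members, from a list of 16 chosen by words in the name, 14 of them with reads. In females 1 was called higher and 1 lower by limma, where 3.69% of all subsystems were called higher and 4.73% lower. In males none was called by limma, against 2.46% of all subsystems. There 6 of the 14 had an unadjusted p under 0.05, against 203 of all 1057 subsystems. For the mean of both sexes 4 were called higher in SHR and 2 lower, against 17.2% of all subsystems, and the median of the list was 0.12 on the log2 scale. Higher were Alginate metabolism (0.31 on the log2 scale), Rhamnose containing glycans (0.22), Legionaminic Acid Biosynthesis (0.26) and Exopolysaccharide Biosynthesis (0.14), with adjusted p of 0.0064 to 0.0138 by limma. Lower were the cluster around yghQ (-0.59) and the YjbEFGH locus (-0.49), which averaged 0.53 and 0.309 normalized reads. LOS core oligosaccharide biosynthesis, named for a sugar core of the kind that lipid A carries, differed by 0.04 ± 0.05 and was not called (adjusted p = 0.569 by limma).

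Of 4 subsystems for outer membrane proteins, none was called in any comparison by limma. Between WKY females and males 3 of them had an unadjusted p under 0.05, against 193 of all subsystems. In each other comparison at most 1 did. The median of these 4 for the mean of both sexes was 0.25. A further list of 7 subsystems was picked by the words teichoic, sortase or Gram-positive in the name. For the mean of both sexes 0 of them were called higher and 3 lower in SHR. Of all subsystems 6.72% were called higher and 10.5% lower, and the list median was -0.11. D-Alanyl Lipoteichoic Acid Biosynthesis fell by 1.16 on the log2 scale and Polyglycerolphosphate lipoteichoic acid biosynthesis fell by 0.97, the lipoteichoic acids being surface polymers of Gram-positive cells. The Multidrug Resistance, 2-protein version Found in Gram-positive bacteria was in the list by its name and is not an envelope subsystem. It was lower in both sexes, by -1.27 in females and -1.88 in males (adjusted p of 0.0184 and 0.0094 by limma).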

How the data were processed

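Per the labels' protocols, cecal DNA was taken up with PowerSoil magnetic beads and sequenced from Nextera libraries. The tools used were cutadapt 2.6, Trimmomatic 0.36, FastQC 0.11.5 and DESeq2 (no version), per the submitters' processing notes. What assigned reads to functions and taxa is not given in the sources used. The authors deposited a normalized signal per subsystem, the read count divided by a size factor of the library. The deposited phylum and genus tables are in percent of assigned reads. The authors' own tables give log2 fold changes and adjusted p-values. Their general model is known by its name alone, so its values need not be means of both sexes. Dividing by the value of 1 read gave whole reads for 100% of values (tolerance 0.01). In 2 libraries, however, 1 read is worth within 0.274% of 1, and there this check cannot tell small recovered reads from the deposited values. Count tests on these reads are alternatives. Reads carry no molecular identifiers and need not be independent molecules.

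The test was limma 3.58.1 in R 4.3.3 on log2(signal + 1), with 4 group means over 33 rats and trended, robust variances, over all 1057 subsystems. The pseudocount was 1. The fit was tested on simulated data with known changes in SHR females. Those counts were drawn independently, with a single setting of spread for all subsystems. The simulation therefore does not cover correlated subsystems or unequal spreads. Comparisons were SHR minus WKY in females, in males and as their mean, female minus male in each strain, and strain by sex. Alternatives were edgeR 4.0.16 with TMM and DESeq2 1.42.0 on the recovered reads, equal library totals, a centred log-ratio, pseudocounts of 0.5 and 5, a filter (at least 10 in at least 7 samples), fits on the compared groups alone, reads thinned to 95952, leaving out the 3 shallowest libraries or each rat in turn, and the Gram-negative share as a covariate, which was added after seeing the data. Permutation tests and figures used Python 3.11.15 with matplotlib 3.10.9, numpy 2.4.6, scipy 1.17.1 and pandas 2.3.3.

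The members and lists were chosen with earlier results of these data known. Every member is named with its mean. The range and median of each group are given for members called in any comparison and for the 4 with the most reads. Subsystems outside the members are named as the most alike by correlation, among those averaging at least 10, or where a list member was called, and LOS core oligosaccharide biosynthesis was picked after its values were seen.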

Additional observations from a re-analysis of the deposited data

Results flagged for a closer look

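Over 52 groups of rats and members examined, 1 value stood far from its group. SHR male 5 had 3.99 normalized reads for O-Methyl Phosphoramidate Capsule Modification in Campylobacter, the lowest of the 7 SHR males. On the log2(normalized reads + 1) scale its gap to the next rat was 0.712 of the range of the group, over the critical value of 0.568. Chance puts about 1 in 20 groups past that value. Whether the rat's library or its community has a part in it was not tested.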

How the results depend on the processing

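The differences and correlations of members were recomputed under 11 alternatives and without each rat, and 0 called ones changed sign. Of the 8 calls, the male call of Capsular Polysaccharides Biosynthesis and Assembly and that of the YhjD cluster were lost under some, as given above, and the other 6 held in each alternative that gave a value and without each rat. No paired analysis was possible because the replicate numbers were given in accession order and pair no rats.

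Members called in females numbered 4 with the Gram-negative share as a covariate and 2 to 3 without 1 rat. In males they numbered 0 in a fit on males alone and 0 with thinned reads, 2 without the 3 shallowest libraries, and 0 to 2 without 1 rat. As the mean of both sexes they numbered 5 to 6 without 1 rat, in WKY sexes 3 by DESeq2 and 0 to 2 without 1 rat (2 without WKY female 1, WKY female 9 or WKY male 7, 1 without WKY male 1), and 0 throughout for SHR sexes and strain by sex. Members correlated with the Gram-negative share numbered 8 to 9.

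Of all subsystems, those called in females numbered 41 with thinned reads, 150 without the 3 shallowest libraries, 164 with the covariate and 61 to 129 without 1 rat. In males they numbered 77 by DESeq2, 41 after a centred log-ratio, 50 with the filter, 2 on males alone, 1 with thinned reads, and from 10 without WKY male 6 to 81 without WKY male 7. The count was 12 and 17 without SHR male 1 and 2, and 46, 40 and 11 without WKY male 1, 2 and 5. As the mean of both sexes they numbered 114 with thinned reads and 135 to 215 without 1 rat. In WKY sexes they numbered 36 by edgeR, 68 by DESeq2, 23 with the filter, 1 on WKY alone, 12 with thinned reads, 12 without the 3 shallowest libraries, 1 with the covariate, and from 2 without WKY male 5 to 74 without WKY male 7. The count was 45, 11 and 46 without WKY female 1, 6 and 9, then 24, 3, 4 and 4 without WKY male 1, 2, 3 and 4, with 17 without SHR female 1 and 19 without SHR male 4, which enter the shared variance alone. Strain by sex had 1 by DESeq2 and 0 to 1 without 1 rat, and SHR sexes 0 to 1.

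Uncalled values near 0 changed sign, on the log2 scale. KDO2-Lipid A biosynthesis in females was -0.034 by edgeR, -0.052 by DESeq2 and -0.018 with the covariate, and -0.11 to 0.088 without 1 rat. The Lipopolysaccharide assembly cluster in females was 0.042 by edgeR, 0.039 by DESeq2, 0.036 after the centred log-ratio and 0.030 with thinned reads. As the mean of both sexes it was 0.0090, 0.0087, 0.012 and 0.013 in that order and 0.021 with the covariate, which gave 0.049 in males. Without 1 rat it was -0.071 to 0.041 in females, -0.13 to 0.058 in males and -0.072 to 0.023 for their mean. Lipopolysaccharide assembly was -0.048 in females without the 3 shallowest libraries, -0.018 to 0.063 without 1 rat, and 0.065 for the mean with thinned reads. The Alphaproteobacteria cluster in males was -0.0057 with thinned reads and -0.035 to 0.080 without 1 rat. Capsular heptose biosynthesis by strain and sex was 0.12 with the covariate and -0.22 to 0.022 without 1 rat. The Bacteroides antitermination proteins in females were -0.059 to 0.27 without 1 rat. Correlations with the Gram-negative share that changed sign were -0.025 for the O-methyl phosphoramidate subsystem without the 2 farthest rats, 0.11 (Bacteroidetes over Firmicutes) and 0.073 (without the 3 shallowest libraries) for Phosphorylcholine incorporation in LPS, and 0.041, 0.094, 0.016 (centred log-ratio) and 0.0016 (without the 2 farthest rats) for the Staphylococcus serotype capsule. The cause was not tested for any of these. The shallow SHR libraries limit what can be seen in the 5 members under 10 normalized reads.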
